A study of Mus musculus with 24 samples.

Results

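The 7 genes described here flank Sox9 on mouse chromosome 11. They are Map2k6, Kcnj16 and Kcnj2 on its upstream side and 4933434M16Rik, Slc39a11, Sstr2 and Cog1 on its downstream side. The 7 were picked by name out of 51912 genes in the table, with the differences between mutants and controls already known, so those differences are given below as a description, without a test. All 7 were among the 16454 genes that passed the filter on low values, which kept genes that reached 10 normalized counts in 4 or more libraries. 4933434M16Rik passed only through the mutants, as it reached 10 in 9 mutant libraries and in 0 control libraries.

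Bulk RNA-seq was performed on archicortex dissected from mouse embryos of a mixed C57BL/6J;MF1 background, with 4 libraries in each of 6 groups. Sox9fl/fl;Sox1Cre mutants (A1 to A4) and Sox9+/+;Sox1Cre controls (A5 to A8) were collected at E13.5, and the same genotypes (mutants A9 to A12, controls A13 to A16) at E12.5. Sox9fl/fl;NestinCre mutants (A17 to A20) and Sox9+/+;NestinCre controls (A21 to A24) were collected at E13.5. The comparisons ask what changes when Sox9 is deleted, and here what happens to the genes beside it. Controls carry the Cre but not the floxed allele, while mutants are homozygous for it, so the loss of Sox9 and the piece of chromosome 11 that came with the floxed allele cannot be told apart in any of the 3 comparisons. Recombination in the 2 lines is unequal. The Sox1 knock-in deletes throughout early neural tissue, and the Nestin transgene leaves much of the hem unrecombined, so NestinCre mutants still hold cells with an intact allele. The libraries held between 16163560 and 49445219 reads on genes (median 23016925). The labels do not say which embryos were littermates, so p-values measure the spread between these libraries.

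Sox9 encodes an SRY-related transcription factor of neural stem cells and radial glia. It sits in a gene-poor stretch that holds distant enhancers of Sox9, and Kcnj2 and Sox9 are known to lie in neighbouring chromatin domains. The neighbours have unrelated jobs. Map2k6 encodes a kinase that activates p38 MAP kinase, Kcnj2 and Kcnj16 encode inwardly rectifying potassium channel subunits (Kir2.1 and Kir5.1), Slc39a11 encodes a zinc transporter of the ZIP family, Sstr2 encodes a receptor for the neuropeptide somatostatin, and Cog1 encodes a subunit of a complex that tethers vesicles at the Golgi. 4933434M16Rik is annotated as a long intergenic non-coding RNA.

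On GRCm38, Sox9 spans chr11:112782224-112787760 on the plus strand. 4933434M16Rik (ENSMUSG00000020624) is the closest member, at chr11:112825154-112832469 on the plus strand, 42.9 kb from start to start. Slc39a11 (chr11:113244853-113650079, minus strand) starts 868 kb, Cog1 (chr11:113649169-113667054, plus strand) 867 kb and Sstr2 (chr11:113619342-113626028, plus strand) 837 kb downstream. Kcnj2 (chr11:111066164-111076821), Kcnj16 (chr11:110968033-111027968) and Map2k6 (chr11:110399122-110525522), all on the plus strand, start at -1716, -1814 and -2383 kb from the Sox9 start (negative upstream). Sstr2 lies within the span of Slc39a11, and the 5′ ends of Slc39a11 and Cog1 overlap by 911 bases, but these pairs share no exon base. Cog1 shares 1116 exon bases, 22.4% of its exon length, with Fam104a on the opposite strand, and without a stated strand setting reads on those bases cannot be assigned to either gene.

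4933434M16Rik is the neighbour whose count separated the genotypes, so its ends are shown first. GENCODE M21 (GRCm38) lists 2 transcripts of it, of 986 and 1940 bases. The first 120 bases of the shorter transcript (chr11:112825154-112825273) and the last 80 of the shorter (chr11:112826131-112826210) and of the longer (chr11:112832390-112832469) are given 5′ to 3′ on the plus strand, with the polyadenylation hexamer AATAAA in capitals. It ends 14 bases before the end of the shorter transcript and 16 before the end of the longer.
4933434M16Rik-201 start: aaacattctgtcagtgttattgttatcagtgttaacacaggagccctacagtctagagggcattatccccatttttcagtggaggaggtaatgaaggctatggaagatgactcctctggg
4933434M16Rik-201 end: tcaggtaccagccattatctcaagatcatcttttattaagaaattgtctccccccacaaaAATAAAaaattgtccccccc
4933434M16Rik-202 end: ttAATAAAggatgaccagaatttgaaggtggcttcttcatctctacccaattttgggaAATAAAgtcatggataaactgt

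RefSeq promoters (GRCm38.p6, 250 bases before to 50 after a start) were at hand for 6 of the 7 members, 12 windows in all. They were searched on both strands for AACAAT and for ACAATG, overlapping letters of the kind SOX proteins bind, and for TGACGTCA, the palindrome bound by CREB. Each was in 1 of the 12 windows, against 10.7%, 12.6% and 1.79% of all 32851 promoters. The Sstr2 window (chr11:113619077-113619376, plus strand) holds TGACGTCA 58 bases before the start and is shown because Sstr2 had the larger difference of the 2 members that passed between the ages of the controls. The third Map2k6 window (chr11:110479090-110479389, plus strand) holds AACAAT 108 and ACAATG 107 bases before the start and is shown as the member window with such a match. Capitals mark these letters, and a match is a description of the sequence only.
Sstr2 promoter: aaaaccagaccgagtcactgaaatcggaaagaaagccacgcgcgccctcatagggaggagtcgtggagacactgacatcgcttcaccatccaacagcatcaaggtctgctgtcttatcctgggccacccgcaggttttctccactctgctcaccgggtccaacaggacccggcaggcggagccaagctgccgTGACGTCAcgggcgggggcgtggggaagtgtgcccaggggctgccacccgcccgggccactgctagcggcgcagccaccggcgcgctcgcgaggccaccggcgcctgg
Map2k6 promoter: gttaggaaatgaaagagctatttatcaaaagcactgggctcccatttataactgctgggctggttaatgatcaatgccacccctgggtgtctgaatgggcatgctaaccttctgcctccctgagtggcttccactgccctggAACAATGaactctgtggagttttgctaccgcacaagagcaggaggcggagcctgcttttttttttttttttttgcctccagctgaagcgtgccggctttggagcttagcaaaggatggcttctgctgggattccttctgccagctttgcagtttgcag

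The libraries matched dorsal tissue by their markers. The summed count of 6 dorsal forebrain markers, led by Lhx2, was 19100 to 41200, and 23 libraries held 5.12 to 48.8 counts of 4 ventral telencephalon markers. A18, a NestinCre mutant, held 481, led by Dlx2. Choroid plexus markers, led by Ttr, ran from 6960 in A1 to 84200 in A3. A1 was also the lowest of the 24 libraries in its summed markers of endothelium and pericytes (5380), meninges (10700), microglia (707), cortical hem (7580) and erythroid cells (40100). No dorsal marker was at 0 in any library.

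Sox9 itself was checked first. Its normalized count lay between 2828 and 3677 in Sox1Cre mutants and between 5218 and 5911 in their controls at E13.5, between 1733 and 2785 against 4194 and 5265 at E12.5, and between 2997 and 3369 against 4586 and 5636 in the NestinCre line. Every mutant library was below every control library. The log2 fold change was -0.74 (SE 0.118, limma with Benjamini-Hochberg adjustment, adjusted p = 0.0021), -1.02 (adjusted p = 6.28e-05) and -0.71 (adjusted p = 0.0297). The last passed in 1 of the 8 fits that leave out a library, with adjusted p from 0.0212 to 0.11. The deleted allele keeps exon 1 and the table sums all exons, so reads on Sox9 remain. In such bulk tissue, fewer cells of a type and less RNA per cell cannot be told apart.

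4933434M16Rik was found in every mutant and in 1 of 12 controls. At E13.5 the 4 Sox9fl/fl;Sox1Cre libraries had normalized counts of 17.3, 15.1, 11.9 and 16.6, and the 4 controls had 0 reads each. At E12.5 the mutants had 8.63, 6.48, 17.1 and 8.92, and the controls again had 0 reads each. In the NestinCre line the mutants had 17.8, 10.2, 16.5 and 10.9, and 3 controls had 0 reads while A23 had 3.69. The 12 mutants and the 12 controls did not overlap.

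These are small numbers of reads. The mutants held 7 to 20 reads per library, 165 in all, and A23 held 4. Set against a limit of 3 reads per control library, the mean of the Sox1Cre mutants was 5.14 times the limit at E13.5 and 2.75 times at E12.5. In the NestinCre line the ratio of the means was 14.99. Without A23, whose 4 reads exceed that limit, the mutant mean was 4.76 times the limit. On the log2(normalized count + 1) scale, the differences were 4.01, 3.42 and 3.30 (SE 0.419 each). Without A18 the NestinCre difference was 3.42, and without A1 the Sox1Cre difference at E13.5 was 3.95. Limits from 3 reads cover counting error in the controls only, and the mutant means enter without their own error. Of the marker lists for other cell types, only Neurod4 of the intermediate progenitor list passed in any of these comparisons, in Sox1Cre at E12.5 (log2 1.71, limma, adjusted p = 0.0417). Of all tested genes, 0.723% passed there, so short lists would hold few or no calls. The summed count of that list, led by Neurog2, went the other way. It was 4530 to 5440 in mutants and 5510 to 5880 in controls, without overlap. Whether the make-up of cells differed was not tested.

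The size of the difference was compared between the Cre lines and between the ages as a description. The Sox1Cre change was larger than the NestinCre change by 0.71 on the log2 scale (SE 0.592), and the E13.5 change exceeded the E12.5 change by 0.59 (SE 0.592). The Sox1Cre controls had 0 reads at both ages, so the second value sets the mutant levels side by side. The first rests largely on A23, the 1 control with reads (4 in all). Sox1Cre controls differed from NestinCre controls by -0.56. Without A23 the NestinCre change was 3.85, beside 4.01 in Sox1Cre at E13.5.

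**Figure D1:**
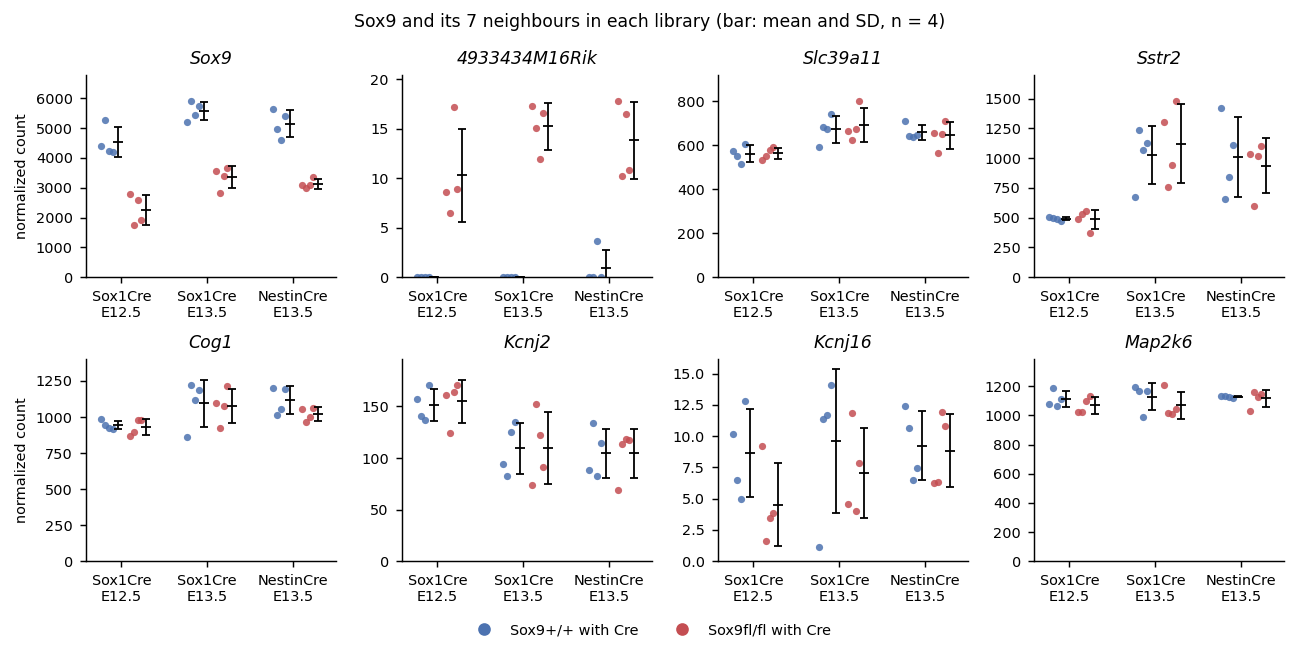
Normalized counts (y axis, from 0) of Sox9 and its 7 neighbours in the 24 libraries, by Cre line and age; blue points are Sox9+/+ controls, red points Sox9fl/fl mutants, and black bars the mean and SD of 4 libraries. 4933434M16Rik lies at 6.48 or more in every mutant and at 0 in 11 controls, while the points of the other 6 neighbours overlap between genotypes in each comparison.

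The libraries of the other 6 neighbours overlapped between genotypes in every comparison. In each of the 3 comparisons 1 of 7 members was past the threshold in limma, 4933434M16Rik each time, against 0.924% of all tested genes in Sox1Cre at E13.5 (0.365% higher, 0.559% lower), 0.0669% in NestinCre at E13.5 (0.0122% higher, 0.0547% lower) and 0.723% in Sox1Cre at E12.5 (0.182% higher, 0.541% lower). In NestinCre it was not past the threshold in edgeR or in a fit of those 8 libraries alone. As the members were chosen with these comparisons in view, and 4933434M16Rik passed the filter through mutants alone, nothing is read from that count. For the other 6, 0 of 18 pairs of groups were free of overlap, where 5.06%, 4.98% and 10.3% of all tested genes were. Their log2 differences ran from -0.90 to 0.12. The median size was 0.06 in Sox1Cre at E13.5, 0.05 in NestinCre and 0.03 in Sox1Cre at E12.5. Over all tested genes, not matched for level, the medians were 0.10, 0.08 and 0.12. These 6 are what was left of the chosen set once the changed member was set aside, so nothing is read from these values either.

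Downstream of Sox9, Slc39a11 had 663.5, 623.5, 675.0 and 801.7 normalized counts in Sox1Cre mutants at E13.5 and 591.2, 682.2, 674.3 and 741.7 in controls. The groups overlapped, with a log2 difference of 0.04 (95% interval -0.13 to 0.21). At E12.5 it differed by 0.00 (-0.17 to 0.18) and in the NestinCre line by -0.03 (-0.20 to 0.14). Sstr2 had 1307, 761.1, 939.5 and 1481 in Sox1Cre mutants at E13.5 and 675.0, 1233, 1068 and 1131 in controls. Its libraries were spread widely, and the interval of the difference, 0.12 (-0.39 to 0.62), was wider than that of any other protein-coding member but Kcnj16. At E12.5 it differed by -0.03 (-0.54 to 0.47) and in the NestinCre line by -0.08 (-0.59 to 0.42). Cog1 had 921.3 to 1212 in Sox1Cre mutants at E13.5 and 860.7 to 1222 in their controls, a log2 difference of -0.02 (-0.21 to 0.17), and its furthest value was -0.12 (-0.32 to 0.07) in the NestinCre line.

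Upstream of Sox9, Kcnj2 differed by -0.02 (-0.47 to 0.44) in Sox1Cre at E13.5, 0.03 (-0.43 to 0.49) at E12.5 and -0.01 (-0.47 to 0.45) in NestinCre. Map2k6 was the steadiest member. Its 24 libraries lay between 990.6 and 1209 (coefficient of variation 5.87%), and its differences of -0.08, -0.06 and -0.02 had intervals of at most -0.21 to 0.11. Kcnj16 had the fewest reads of the protein-coding members, 202 over all 24 libraries. At E12.5 it had 9.25, 1.62, 3.43 and 3.82 in mutants and 10.2, 6.52, 5.01 and 12.8 in controls. These overlapped, and the log2 difference of -0.90 had an SE of 0.528.

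Of 20 annotated genes between Map2k6 and Cog1, a stretch of 3.27 Mb, 11 passed the filter, these being the 7 members, Sox9 and 3 more. BC006965 is a non-coding transcript that starts 0.248 kb from the start of Sox9 on the other strand. It had means of 12.4 ± 4.48 in Sox1Cre mutants at E13.5 and 20.9 ± 3.35 in controls, and of 9.70 ± 2.66 against 19.3 ± 4.51 (SD, n = 4 each) in the NestinCre line. Neither pair of groups overlapped, but the log2 differences of -0.77 and -0.93 did not pass (adjusted p = 0.331 and 0.523), nor did -0.48 at E12.5 (adjusted p = 0.532), where the groups overlapped. 2610035D17Rik, a long non-coding RNA between 4933434M16Rik and Slc39a11, differed by -0.78, -0.64 and -0.96 (adjusted p = 0.197, 0.652 and 0.0958), and only at E12.5 were its mutants (38.2 to 60.0) all below its controls (71.4 to 136.8). Gm11677, a processed pseudogene whose reads may belong to a parent gene, differed by -1.89, -0.08 and 0.69 (adjusted p = 0.122, 1.0 and 0.613). The other 9 genes did not pass the filter, and 4 of them had no read.

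**Figure D2:**
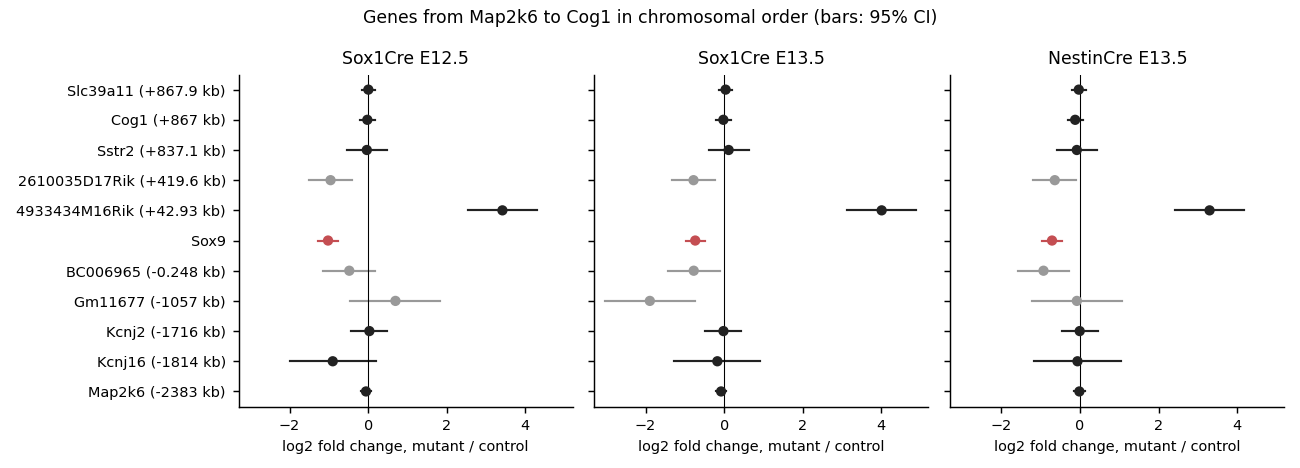
Log2 fold change of mutants against controls (x axis) with 95% intervals for the 11 genes between Map2k6 and Cog1 that passed the filter, in chromosomal order with the distance of each start from the Sox9 start; black marks members, red Sox9 and grey other genes. 4933434M16Rik lies between 3.30 and 4.01 in the 3 panels, Sox9 between -1.02 and -0.71, and the other members close to 0, apart from Kcnj16 at E12.5.

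The neighbours fell into 3 tiers of abundance. Scaled to exon length and to the depth of each library (reads per kb of exon and per 1000000 reads on genes), the mean level over 24 libraries was 16.9 (SD 6.79) for Sstr2, 13.8 (SD 0.667) for Map2k6, 8.87 (SD 1.01) for Cog1 and 8.08 (SD 0.939) for Slc39a11. Kcnj2 stood at 0.966 (SD 0.248). 4933434M16Rik (0.142, SD 0.151) and Kcnj16 (0.0871, SD 0.0415) were lowest, and Sox9 was higher than all of them at 41.5. Sstr2 and Map2k6, Cog1 and Slc39a11, and 4933434M16Rik and Kcnj16 did not differ beyond their spread over the 24 libraries. Within libraries, Cog1 was above Slc39a11 in all but A2 (8.18 against 8.22) and A5 (7.26 against 7.41). Sstr2 was below Map2k6 in 8 of 8 E12.5 libraries and above it in 13 of 16 E13.5 libraries. Between the last pair the order went with genotype, as 4933434M16Rik was above Kcnj16 in 12 of 12 mutants and below it in 11 of 12 controls. At its level in mutants, 0.277 (SD 0.0845), 4933434M16Rik was still below Kcnj2, and only 4.59% of tested genes had a lower mean level than it had over all libraries.

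**Figure D3:**
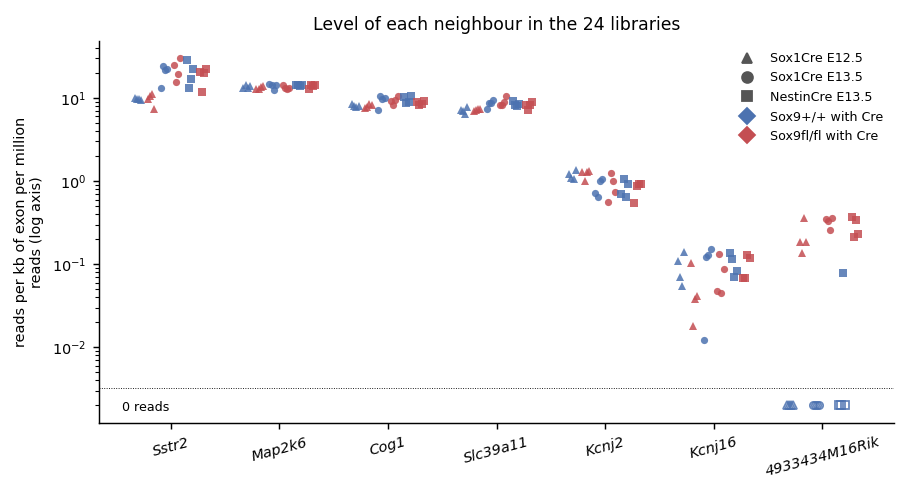
Reads per kb of exon, scaled to the same depth in every library (y axis, log scale), for each neighbour in the 24 libraries; blue marks controls, red mutants, triangles Sox1Cre at E12.5, circles Sox1Cre at E13.5, squares NestinCre at E13.5, and open symbols below the dotted line libraries with 0 reads. The means run from 16.9 for Sstr2 to 0.0871 for Kcnj16, and only 4933434M16Rik has libraries at 0.

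Control embryos at the 2 ages form a comparison apart from that of mutants with controls, although whether it was in view when the members were chosen is not known. Sstr2 rose from E12.5 to E13.5. The E12.5 controls had 509.3, 497.9, 492.5 and 471.8 normalized counts and the E13.5 controls 675.0, 1233, 1068 and 1131, so all 4 E13.5 libraries were higher. The log2 difference was 1.02 (SE 0.243, limma, adjusted p = 0.0112). Slc39a11 passed narrowly, with 562 ± 38.2 at E12.5 and 672 ± 61.9 at E13.5 (SD, n = 4 each; log2 difference 0.26, SE 0.0825, limma, adjusted p = 0.0485). Its groups overlapped, and it passed in only 1 of the 8 fits that leave out a library. Thus 2 of the 6 members with reads in these controls passed, against 11.5% of all tested genes (6.33% higher, 5.17% lower).

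The other members did not pass with age. Kcnj2 had 137 to 170 at E12.5 and 82.9 to 134.5 at E13.5 in controls, without overlap, but its log2 difference of -0.49 had an adjusted p of 0.158 in limma. Cog1 differed by 0.20 (adjusted p = 0.162), and passed with an adjusted p of 0.00971 when A5, the lowest E13.5 control, was left out. Map2k6 differed by 0.02 (interval -0.11 to 0.15), and 4933434M16Rik was at 0 reads at both ages. Kcnj16 had 9.58 ± 5.76 at E13.5 and 8.64 ± 3.53 at E12.5 (SD, n = 4 each). Its log2 difference of -0.12 has the opposite sign to that of the means and was 0.54 without A5, a library with 1 read, so no direction is given. Among the non-members, 2610035D17Rik rose by 1.05 (adjusted p = 0.0144).

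Sex and age cannot be told apart in these controls. Xist, the RNA that marks the inactive X chromosome of female cells, was at 3526 normalized counts or more in 4 of 4 E12.5 controls and at 6.41 or less in 4 of 4 E13.5 controls. With Xist as a covariate, the log2 difference of Sstr2 was 0.75 and did not pass (adjusted p = 0.242). Among the Sox1Cre mutants, 2 of 4 had high Xist at each age. Among mutants with high Xist, Sstr2 was 529.5 and 553.8 at E12.5 and 761.1 and 939.5 at E13.5, and among those with low Xist it was 374.7 and 486.4 against 1307 and 1481. The E13.5 values exceeded the E12.5 values by 0.64 and 1.70 on the log2 scale. These are 2 libraries against 2, given as values without a test, and the part of sex in the control difference was not tested. Mutants and controls were unequal in sex too. High Xist was found in 2 of 4 Sox1Cre mutants and 0 of 4 controls at E13.5. At E12.5 it was found in 2 of 4 mutants and 4 of 4 controls, and in NestinCre in 2 of 4 and 1 of 4. The comparisons of mutants with controls are therefore not balanced for sex.

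Marker genes of the dissected tissue also moved between the ages. Among controls, 3 of 5 cortical hem markers were lower at E13.5, with a summed normalized count of 17600 to 27900 at E12.5 and 8920 to 14100 at E13.5, led by Wnt8b, where 5.17% of all tested genes were lower and 6.33% higher. Of the erythroid markers 4 of 5 were lower, and of the intermediate progenitor markers 2 of 3 were higher (Eomes by 0.79 and Neurod4 by 1.31, adjusted p = 0.0431 and 0.0346). Reln, the most abundant marker of Cajal-Retzius neurons, rose by 1.04 (adjusted p = 0.0142), while the other 3 markers of these cells did not pass. Of the choroid plexus markers 0 of 5 passed in limma, but their summed count, led by Ttr, was 14400 to 26200 at E12.5 and 27500 to 63400 at E13.5, without overlap. No marker of these 5 lists was at 0 in any library. Their part in the change of Sstr2 was not tested.

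Between the 2 kinds of control at E13.5, which also differ in Cre, 0 of the 6 other members passed in limma, edgeR or DESeq2 once 4933434M16Rik, at 0 reads in 7 of these 8 libraries, was set aside (0 at an unadjusted p under 0.05 in limma), against 0.243% of tested genes (0.122% in each direction). Log2 differences between Sox1Cre and NestinCre controls ran from -0.03 for Cog1 to 0.06 for Kcnj2 apart from Kcnj16, which gave -0.24, though its means were 9.58 and 9.25 and A5 held 1 read. The change with genotype was called different for 0 of 7 members between the Cre lines and for 0 of 7 between the ages, from which nothing is read, since these contrasts are made from those in view when the members were chosen. Over all genes 7, or 0.0425% (0.0243% higher, 0.0182% lower), differed between the lines, and 0, or 0.0%, between the ages in limma, where 1217 genes had an unadjusted p under 0.05. DESeq2 called 98 and 20, and edgeR 8 and 0.

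Members did not vary as a block. Over the 24 libraries, the Pearson correlation of log2 values for the 21 pairs of members ran from -0.722 to 0.875 with a median of 0.0733. Slc39a11, Sstr2 and Cog1, which overlap or lie side by side, gave 0.875 (Slc39a11 with Sstr2), 0.835 (Slc39a11 with Cog1) and 0.834 (Sstr2 with Cog1). Sstr2 and Kcnj2 gave the lowest value. The libraries share age, Cre line and dissection, so these are descriptions.

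The genes most like Sstr2 over the 24 libraries were Rbfox3 (r = 0.982), which encodes the neuronal nuclear antigen NeuN, Rab3a (0.980), which encodes a GTPase of synaptic vesicles, and Dnajc6 (0.979), which encodes the neuronal clathrin-uncoating factor auxilin. Rbfox3 had 221 ± 17.4 at E12.5 and 458 ± 125 at E13.5 in Sox1Cre controls (SD, n = 4 each; log2 1.01, adjusted p = 0.00955). Slc39a11 was most like the neuropeptide gene Cck (0.936) and the phosphatase subunit gene Ppp2r5b (0.936), then Mtss1l (0.923). Cog1 was most like Sh3rf3 (0.910), Clip2 (0.895) and Eomes (0.882), the last a marker of intermediate progenitors. Usp54 (0.908) and Tmem132c (0.898) were among the 3 genes most like Kcnj2.

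Map2k6 had no close partner, as Efnb2 (0.778), Zfp664 (0.743) and Hnrnpa1 (0.736) came nearest. Kcnj16, with its few reads, reached only 0.710 with Pcdhga1, 0.663 with Wdr44 and 0.652 with Kif13b. 4933434M16Rik was most like Nat9 (0.880), which lies 2.41 Mb downstream of Sox9, then Tacr3 (0.842) and Gm13016 (0.840). Its reads lay in the 12 mutants and 1 control, so likeness to it largely follows genotype. Genotype differences were in view when the members were chosen, and the mutants and controls of Nat9 did not overlap either.

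Around the members, 265 tested genes other than Sox9 started within 10 Mb of Sox9. In Sox1Cre at E13.5, 9 of them passed (3.40%, 4 higher and 5 lower), against 0.908% of genes on other chromosomes and 0.404% of chromosome 11 beyond 10 Mb. In Sox1Cre at E12.5, 8 passed (3.02%), against 0.711% and 0.202%, and in NestinCre at E13.5, 2 passed (0.755%), against 0.0526% and 0 of 990. With the members set aside, 8, 7 and 1 of 258 passed. The count in Sox1Cre at E13.5 rests on few libraries, since it was 20 without A1, 5 without A4, and 2 when the 8 libraries were fitted alone. At E12.5 it was 4 without A13 and 5 without A9, A12, A14 or A16.

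Most of the genes that passed within 10 Mb lay within 5 Mb of Sox9. Within 1 Mb of Sox9, and with the members set aside, Cdc42ep4 passed in Sox1Cre at E13.5 (log2 -0.34, adjusted p = 0.0286) and no gene did in the other comparisons. Between 2 and 5 Mb, 5 of 95 passed in Sox1Cre at E13.5 and 6 of 95 at E12.5, between 5 and 10 Mb 1 of 153 (0.654%) at each age, and between 10 and 20 Mb 0 of 202. With the members set aside, Mettl23 (4.06 Mb downstream) passed in all 3 comparisons, at -1.47, -1.43 and -0.98 (adjusted p = 1.69e-10, 3.08e-10 and 4.52e-07), and its controls at E13.5 had 535 ± 21.2 in Sox1Cre and 365 ± 19.6 in NestinCre (SD, n = 4 each), without overlap. Nat9 (0.56 and 0.55), Ubald2 (0.28 and 0.29) and Mxra7 (-0.65 and -0.60) passed in both Sox1Cre comparisons. In NestinCre their differences had the same signs (0.33, 0.07 and -0.34) and did not pass (limma, adjusted p = 0.336, 0.984 and 0.501).

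Across all tested genes, 14 of 16454 (0.0851%; 3 higher, 11 lower) had 12 Sox9fl/fl libraries that did not overlap the 12 Sox9+/+ libraries. Of these, 9 lay on other chromosomes. The 3 within 10 Mb of Sox9 other than Sox9 and 4933434M16Rik were Nat9, higher in mutants, and Mxra7 and Mettl23, lower. Nat9, an N-acetyltransferase gene, had 174 to 213 in mutants (median 190) and 114 to 169 in controls (median 139).

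**Figure D4:**
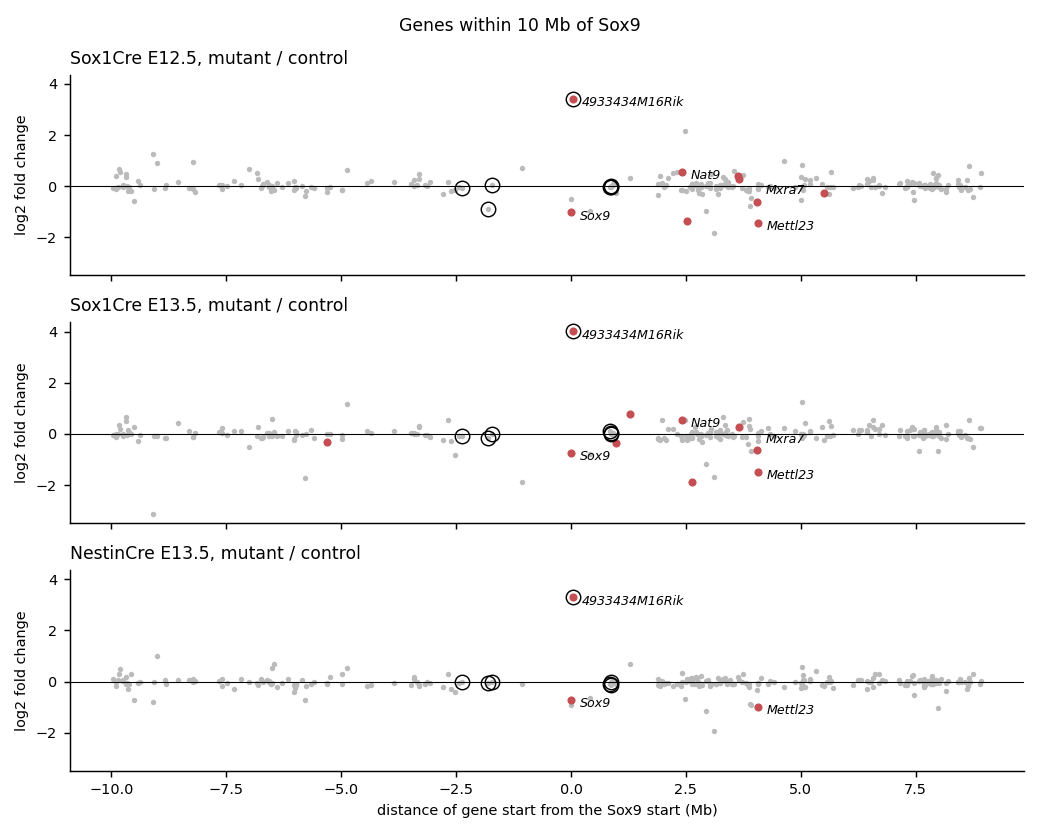
Log2 fold change of mutants against controls (y axis) by distance of the gene start from the Sox9 start (x axis, Mb, negative upstream) for tested genes within 10 Mb, in the 3 comparisons; red points passed at an adjusted p of 0.05, grey points did not, and open circles mark the 7 members. Apart from 4933434M16Rik, and Kcnj16 in Sox1Cre at E12.5, the members lie near 0. Red points between 2 and 5 Mb downstream number 5 in Sox1Cre at E13.5, 6 at E12.5 and 1 in NestinCre.

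Among further genes of the members' pathways, Kcnj10 alone passed with genotype. Of 11 further inward rectifier genes tested, Kcnj10 was lower in Sox1Cre mutants, with 157 ± 102 against 663 ± 303 at E13.5 and 28.0 ± 6.92 against 114 ± 29.5 at E12.5 (SD, n = 4 each; log2 -2.16 and -1.98, adjusted p = 0.0198 and 0.0417), and none was higher. Kcnj10 encodes Kir4.1, the channel subunit with which the product of Kcnj16 assembles. None of 3 further somatostatin genes, 7 COG complex genes, 11 genes of the p38 cascade and 12 ZIP genes passed in any of the 3 comparisons, where 0.924%, 0.0669% and 0.723% of all tested genes did, so lists of this size would hold few or no calls at the background share. In the NestinCre line none of the genes on these lists passed. The list medians in Sox1Cre at E13.5 were -0.11 for the somatostatin genes, -0.06 for the COG genes, 0.04 for the channels, 0.02 for the p38 cascade and -0.01 for the ZIP genes, beside 0.00 for all tested genes.

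With age, further receptor genes of somatostatin rose in controls. Sstr1 went from 1.66 ± 1.64 to 36.4 ± 21.3 and Sstr3 from 15.4 ± 3.74 to 49.0 ± 23.6 (SD, n = 4 each; log2 3.89 and 1.52, adjusted p = 0.00186 and 0.0142), which is 2 of the 3 further somatostatin genes tested, where 6.33% of all tested genes were higher. Kcnj10 rose from 114 to 663 (log2 2.42, adjusted p = 0.0034). Mapk12, which encodes a p38 kinase, fell by 0.59 and the zinc transporter gene Slc39a8 by 0.64 on the log2 scale (adjusted p = 0.0359 and 0.0176), and no further COG gene passed. These controls carry the same split of Xist as above.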

How the data were processed

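The authors trimmed reads with Trimmomatic 0.36, aligned them with STAR 2.5.2a to GRCm38 (Ensembl release 89), counted genes with RSEM 1.2.31 and deposited DESeq2-normalized counts per gene and library, a signal in which 1 read is worth 0.474 to 1.46 units. Strand setting was not given in the sources used here. Dividing each column by its smallest value above 0 gave whole reads for 100% of values (tolerance 1e-06), so depth is known. Coordinates and exon lengths came from GENCODE M21.

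The 7 members and the gene lists were chosen with earlier results of these data known. Named genes are the members and Sox9, genes between Map2k6 and Cog1 past the filter, genes within 10 Mb that passed in 2 or 3 comparisons or did not overlap 12 against 12, the 3 genes most like each member (mean of at least 10), and members of lists that passed; Cdc42ep4 was named after its values were seen, and 1 gene that the rule names is not reported here. limma 3.58.1 (trend, R 4.3.3) was fitted to log2(normalized count + 1) of 24 libraries with 6 group means, two-sided, with Benjamini-Hochberg adjustment over 16454 genes and a threshold of 0.05. This understates changes of low genes. edgeR 4.0.16 and DESeq2 1.42.0 on the recovered reads were alternatives and called 146 and 358 genes in Sox1Cre at E13.5, 5 and 37 in NestinCre, and 106 and 298 in Sox1Cre at E12.5, where limma called 152, 11 and 119.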

Additional observations from a re-analysis of the deposited data

Results flagged for a closer look

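Of 46 sets of 4 libraries looked at, 4 held a library far from the other 3 by Dixon's test (gap over range), and chance flags about 5% of sets. In NestinCre controls, A23 alone had reads of 4933434M16Rik (3.69 against 0, ratio 1.0, which any reads beside 3 libraries at 0 would give), and A21 was high for Slc39a11 (711 against 638 to 646, ratio 0.897). In NestinCre mutants, A17 was low for Kcnj2 (69.1 against 113 to 118, ratio 0.900). In Sox1Cre controls at E13.5, A7 was low for Map2k6 (991 against 1170 to 1190, ratio 0.875).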

How the results depend on the processing

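No paired analysis was possible because the labels share no replicate number between groups. Pseudocount, filter, normalization, samples in the fit, an Xist covariate, edgeR, DESeq2 and leaving out each library were tried, and no result past the threshold reversed; differences close to 0 changed sign in some fits, such as Kcnj2 in Sox1Cre at E13.5 (-0.19 to 0.15 leaving out a library). The log2 difference of 4933434M16Rik in Sox1Cre at E13.5 was 2.01 with a pseudocount of 5, 4.96 with 0.5 and 6.99 in edgeR, since its controls are at 0. In NestinCre, 0 members passed in edgeR and in a fit of 8 libraries, against 1. A mean of at least 100 left out 4933434M16Rik, and DESeq2 gave it no adjusted p at E12.5, so neither gave a count there. Genes within 10 Mb numbered 2 of 9 when Sox1Cre at E13.5 was fitted alone (5 to 20 leaving out a library), 1 of 2 in NestinCre in edgeR or with a mean of at least 100 (2 to 2), and 5 of 8 at E12.5 with Xist, fitted alone or without a filter (4 to 8). In the age comparison 2 members became 0 with Xist, 1 fitted alone, without a filter or with quantile normalization, and 1 to 3 leaving out a library; Sstr2 passed in 8 of 8 of the latter. Sox9 in NestinCre was -0.68 with Xist (adjusted p = 0.0617) and -0.77 to -0.67 leaving out a library, passing in 1 of 8 (adjusted p = 0.0212 to 0.11). The count of 14 genes free of overlap was 14 to 18. The counts of all genes that passed differed most in DESeq2, with 358, 37 and 298 in the 3 genotype comparisons against 152, 11 and 119 in limma, 152 against 40 between the control lines and 98 against 7 for the difference between the lines; edgeR called 5 in NestinCre. Low counts limit 4933434M16Rik and Kcnj16.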
